A study of Mus musculus with 16 samples.

Results

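Loss of Erk2 after 3 hr of culture was examined in mouse CD4 T cells on Illumina bead arrays. The members are the arrays that the labels place at 3 hr, which are 4 of the 16 arrays of the series. They are Erk2-deficient cells in Th0 culture, Erk2-deficient cells in iTreg culture (a culture that favours induced regulatory T cells), WT (wild-type) cells in Th0 culture and WT cells in iTreg culture, with 1 array each. The starting level came from 2 day 0 arrays, 1 labelled Erk2 deficient and 1 labelled WT. A later stage came from 10 day 1 arrays that form 5 pairs of the same genotypes. These pairs differ in culture, which the labels give as Th0, Th1, iTreg, Th0 with 1 hr of TGF and Th0 with 3 hr of TGF. All cells are of strain C57/BL6. The labels do not say how Erk2 was removed, how many animals were used, which stimulus the cells received or what the Th0 and iTreg cultures contained. Nor do they say whether arrays came from separate animals, so each p-value rests on spread between arrays that may be technical. The series as a whole addresses how Erk2 regulates differentiation into Th1 and iTreg cells.

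Erk2 is a kinase at the end of the Ras, Raf and MEK cascade, which the T cell receptor activates. Active Erk enters the nucleus and phosphorylates ternary complex factors, which act with serum response factor at immediate early genes such as those of the Egr family. The cascade also induces its own inhibitors, among them the phosphatase Dusp6, which removes phosphate from Erk, and the Sprouty-related protein Spred1. The related kinase Erk1 shares many substrates with Erk2.

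The day 0 arrays ran against their labels for genes that marked the genotypes elsewhere. Gdpd3, which encodes a phosphodiesterase of lipid metabolism, was at 9.47 and 9.31 on the Erk2-deficient arrays at 3 hr and at 6.74 and 6.63 on the WT arrays, on the log2 scale of normalized intensity used throughout. At day 0 it was at 6.63 on the array labelled Erk2 deficient and at 10.11 on the array labelled WT. Hba-a1, an alpha-globin gene of red cells, was at 8.99 and 8.98 without Erk2 at 3 hr, at 12.43 and 12.41 in WT, at 12.27 on the day 0 array labelled Erk2 deficient and at 9.06 on the day 0 array labelled WT. Of 13 probes that were lower by at least 0.5 in all 7 cultured pairs, 3 were also lower in the day 0 pair as labelled, and of 3 that were higher in all of them, 0 were. This size was chosen after the values were seen. The mean of both day 0 arrays was therefore used as the starting level for both genotypes, and no genotype difference is drawn from day 0.

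Both cultures were close to each other at 3 hr. Of 14501 probes above background, 4 were called between iTreg and Th0 culture (0.0276%, limma, adjusted p under 0.05), while 816 had an unadjusted p under 0.05. Those 4 were 1110017D15Rik, Actb, Pdgfb and Ptprc, named after their values were seen. For Actb only the Erk2-deficient iTreg array stood apart, at 11.63 on the log2 scale against 12.95 to 13.06 on the other 3 hr arrays. For 1110017D15Rik only the WT iTreg array did, at 8.31 against 7.39 to 7.43. Correlations across probes were 0.997 between the Erk2-deficient arrays and 0.997 between the WT arrays of the 2 cultures. They were 0.995 and 0.992 between the genotypes within Th0 and iTreg culture. The cultures serve as the 2 pairs of the genotype comparison. Erk2-deficient and WT samples alternated along the chip, and an effect of position cannot be told apart from that of genotype.

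Without Erk2, 545 probes were lower (3.76%) and 411 higher (2.83%) at 3 hr, which is 956 of 14501 (6.59%), or 683 of 9800 genes (6.97%). The direction was the same in both pairs for 953 of them. Falls were larger than rises, with 32 probes at least 2-fold lower and 1 at least 2-fold higher. This fit of 4 arrays has 1 residual degree of freedom, and limma gave every probe the same standard error of 0.104, so that a call amounted to a difference of at least 0.306 in either direction. With the spread of each probe estimated from all 16 arrays, 322 probes were lower (2.22%) and 179 higher (1.23%), and all 501 were among the 956. That fit has 5 residual degrees of freedom. They come mostly from the 5 day 1 pairs, so its SE largely reflects how genotype differences vary among cultures at day 1. From here on a gene is said to have fallen or risen where both fits called it. The SE and adjusted p given for single genes are those of the 16-array fit with 2 pairs at 3 hr, a choice made after the uniform standard error was seen. Calls in the 16-array fit were fewer with either 3 hr pair left out. The residual spread is then wholly that of the day 1 pairs. An adjusted p given below with a 3 hr pair left out thus sets the remaining pair against day 1 spread, not against spread at 3 hr. The pairs pointed the same way for large differences. The 26 probes at least 2-fold lower in the Th0 pair were all lower in the iTreg pair, with a median of -1.41, and the 54 at least 2-fold lower in the iTreg pair were all lower in the Th0 pair, with a median of -0.91.

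The largest fall of all was that of Hba-a1, the red cell gene given above (-3.44 ± 0.27, adjusted p = 1.3e-06). Chemokines, TNF family ligands, an Erk feedback inhibitor, immediate early transcription factors and the myeloid gene Lyz1 held further large falls. Cxcl9, a chemokine that attracts Th1 cells and is induced by interferon gamma, was at 6.70 and 6.46 on the Erk2-deficient Th0 and iTreg arrays, against 8.30 and 8.75 in WT, a difference of -1.94 ± 0.15 (SE, adjusted p = 1.3e-06). Dusp6 was at 9.98 and 9.91 without Erk2, against 11.72 and 11.86 in WT, a difference of -1.85 ± 0.10 (adjusted p = 1.3e-08). A second Dusp6 probe differed by -1.75. In both genes the Erk2-deficient arrays of both cultures lay together. Tnf, the gene of tumour necrosis factor, was at 10.97 and 10.99 without Erk2 and at 12.40 and 12.65 in WT, a difference of -1.55 ± 0.14 (adjusted p = 5.1e-06). Nr4a2, an orphan nuclear receptor of the immediate early response, was at 9.07 and 9.30 without Erk2 and at 10.51 and 10.76 in WT, a difference of -1.45 ± 0.09 (adjusted p = 4.7e-08). These genes were named for large falls with 1 direction in both pairs, so the separation of their 4 arrays by genotype largely follows from that choice. Among the named probes, 38 of 118 called ones kept their call and direction under all 13 alternatives, and Cxcl9, Dusp6, Tnf, Nr4a2, Lta, Rgs16, Sema7a, Gfod1, Ccl3, Cdkn1a, Atf3, Irf8, Il2ra and Gdpd3 were among them.

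**Figure D1:**
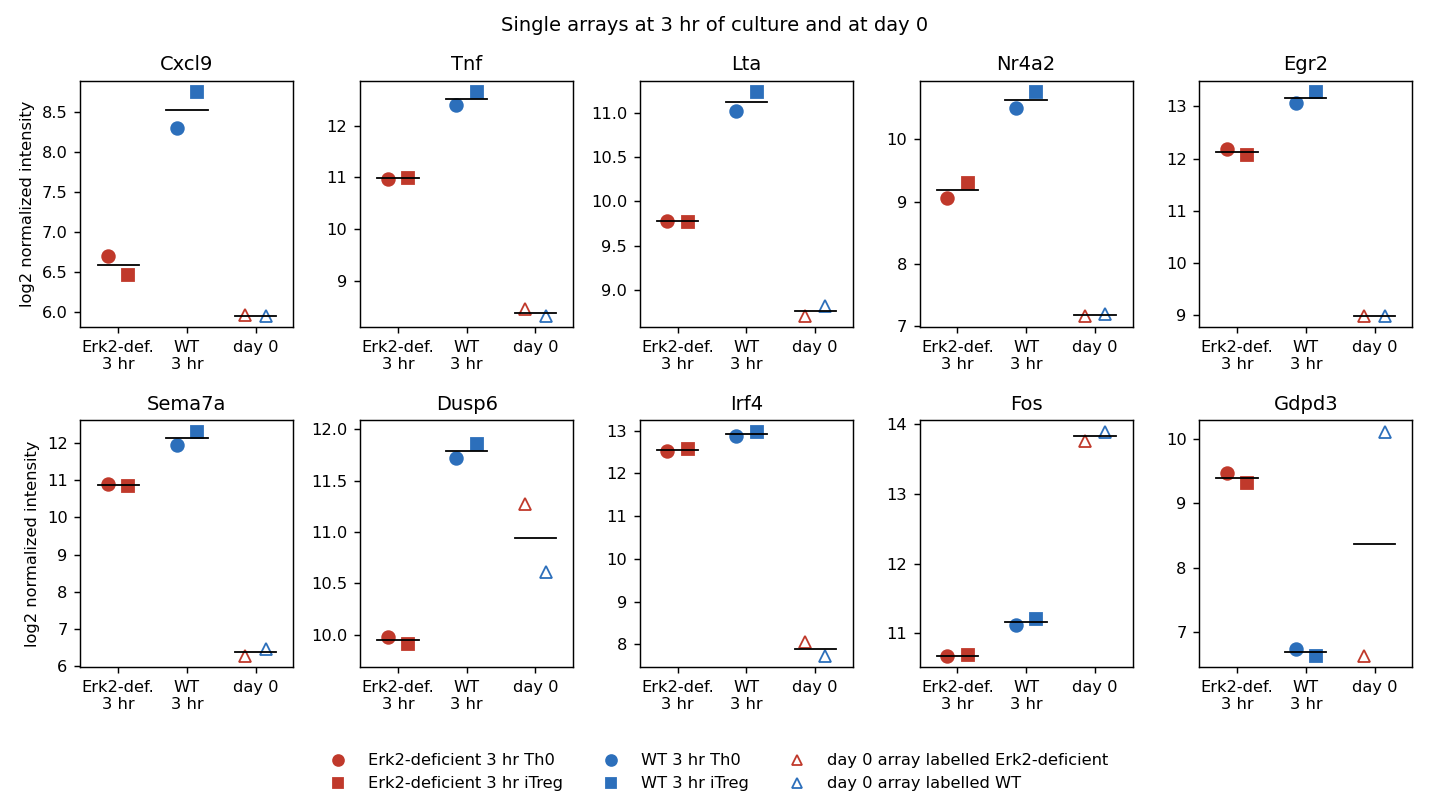
Log2 normalized intensity (vertical axis) on each array for 10 genes, with Erk2-deficient arrays at 3 hr on the left, WT arrays at 3 hr in the middle and both day 0 arrays on the right. Circles are Th0, squares iTreg and open triangles day 0, and lines are means. Tnf lies near 10.97 to 10.99 without Erk2 and 12.40 to 12.65 in WT, Irf4 differs little between genotypes, and Gdpd3 has its day 0 arrays in the opposite order.

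Promoters of 3 of these genes are printed because they are induced genes with clear falls and hold letters of motifs that Erk-regulated factors are known to bind. The stretches are RefSeq promoters of build GRCm38.p6, from 250 bases before to 50 after the start. They are chr10:67537619-67537918 on the plus strand for Egr2, chr2:57123954-57124253 on the minus strand for Nr4a2 and chr5:92328030-92328329 on the minus strand for Cxcl9. Capitals mark the CArG box, which serum response factor binds, TGANTCA, the AP-1 site, and TGACG, part of the cyclic AMP response element, or its reverse CGTCA. Both strands were searched.
Egr2: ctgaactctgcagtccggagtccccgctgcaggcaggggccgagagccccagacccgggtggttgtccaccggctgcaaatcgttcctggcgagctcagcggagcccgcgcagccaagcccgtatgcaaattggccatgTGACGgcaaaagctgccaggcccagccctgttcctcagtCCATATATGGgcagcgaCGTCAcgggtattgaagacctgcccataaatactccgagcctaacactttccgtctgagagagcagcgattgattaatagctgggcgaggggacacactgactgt
Nr4a2: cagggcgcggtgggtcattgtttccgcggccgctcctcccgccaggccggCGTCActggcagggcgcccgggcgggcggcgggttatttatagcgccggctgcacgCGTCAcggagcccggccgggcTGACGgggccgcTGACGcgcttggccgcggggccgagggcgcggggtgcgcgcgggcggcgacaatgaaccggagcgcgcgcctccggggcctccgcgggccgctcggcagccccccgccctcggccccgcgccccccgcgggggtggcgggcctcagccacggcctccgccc
Cxcl9: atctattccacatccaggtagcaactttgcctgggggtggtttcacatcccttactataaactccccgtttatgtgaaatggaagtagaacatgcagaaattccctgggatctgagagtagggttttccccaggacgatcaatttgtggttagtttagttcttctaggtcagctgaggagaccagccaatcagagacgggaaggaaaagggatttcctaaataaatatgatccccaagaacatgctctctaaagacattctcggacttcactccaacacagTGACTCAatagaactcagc
The Egr2 stretch was taken from the 5 starts listed for that gene for holding the most kinds of these motifs. It holds a CArG box 72 bases before the start with TGACG or its reverse on either side. In the same notation the Nr4a2 stretch holds TGACG or its reverse 4 times, and the Cxcl9 stretch holds TGANTCA after the start. Promoters were in the table for 85 of the 98 induced genes that were lower without Erk2. Of those, 1.18% had a CArG box, which is 1 gene, Egr2, while 10.6% had TGANTCA and 37.6% TGACG. Among 189 induced genes that were not called the shares were 0.529%, 5.82% and 52.4%, among 8018 measured genes 1.65%, 6.66% and 34.3%, and among all 27025 genes with a listed promoter 1.81%, 8.97% and 23%. Over all 32851 promoters of 300 bases the shares were 1.63%, 7.81% and 20.8%. These are matches of letters, with no test of binding.

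Genes that move during the first 3 hr were then set beside the genotype difference. On the mean of the 4 arrays, 474 probes were induced at least 2-fold over day 0 (3.27%) and 552 repressed (3.81%), which are 341 (3.48%) and 431 (4.40%) of the 9800 genes. Of the induced probes, 146 were lower without Erk2 and 18 higher, and with the 16-array spread 106 were lower and 9 higher. Lower calls thus made up 30.8% of induced probes, beside 3.76% of all probes, and higher calls 3.80%, beside 2.83% of all. Of the repressed probes, 72 were higher without Erk2 (13.0%, beside 2.83% of all) and 25 lower (4.53%, beside 3.76% of all). With the 16-array spread 24 were higher (4.35%, beside 1.23% of all) and 15 lower (2.72%, beside 2.22%). Offset 16 in the background correction left 94 induced probes lower and 10 repressed probes higher. The median difference was -0.16 among induced, 0.11 among repressed and 0.01 among the other probes. In the Th0 pair the medians of induced and repressed probes were -0.12 and 0.08, and in the iTreg pair -0.21 and 0.13.

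These classes were set on the mean of both genotypes, so a probe that moved in WT alone was mostly left out, and the shares of the change that remained without Erk2 are descriptions of the probes so chosen. Set on WT cells alone, 550 probes were induced, 193 of them lower without Erk2, and 605 repressed, 108 of them higher, a choice that favours probes with a large WT change. Over the classes set on both genotypes, the rise without Erk2 was a median of 89.6% of the WT rise on the log2 scale over the induced probes, and the fall a median of 93.0% over the repressed ones. Both genotypes share the day 0 arrays in these values. Of the 98 induced genes called lower, 58 kept 50 to 75% of the WT rise, 34 kept at least 75%, 5 kept 25 to 50% and 1 kept less than 25%, with a median of 71.4%. That 1 gene was Cxcl9, which was not above background at day 0. Its rise was at least 1.21-fold without Erk2 and at least 4.65-fold in WT. Ccl1, a chemokine made by T cells, was also not above background at day 0 and rose at least 1.11-fold without Erk2 and at least 2.42-fold in WT. Lta, which encodes lymphotoxin alpha, rose by 1.01 without Erk2 and by 2.36 in WT, and Atf3, a stress-induced transcription factor, by 1.04 and 2.23.

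**Figure D2:**
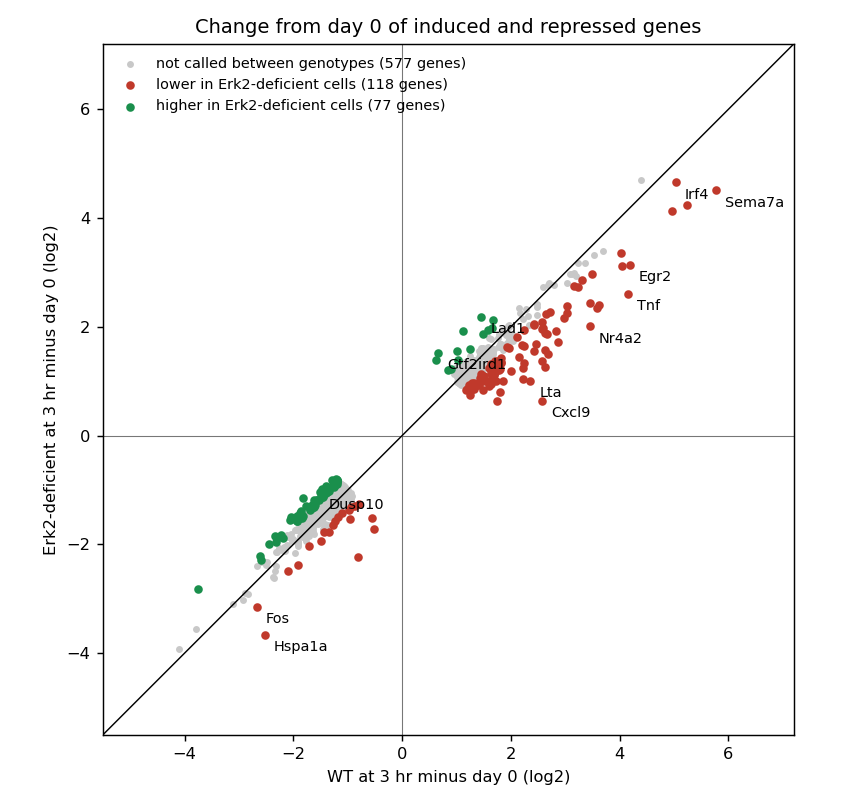
Change from day 0 in Erk2-deficient cells (vertical axis, log2) against that in WT cells (horizontal axis, log2) for the 341 genes induced and the 431 repressed at least 2-fold, with both axes using the same day 0 arrays. Red points were called lower and green points higher without Erk2 in the 4-array fit, and grey points were not called. Points follow the diagonal, and 98 induced genes lie below it in red, with Tnf at 2.60 without Erk2 against 4.15 in WT. Genes not above background at day 0, such as Cxcl9, are drawn at their measured values, which are no exact changes.

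The genes with the largest rises divided into those that fell without Erk2 and those that did not pass. Of the 30 most induced genes, a number chosen after the data were seen, 17 were called lower, 0 higher and 13 not called, and 16 were lower with the 16-array spread. Sema7a, a membrane-bound semaphorin, headed them and was at 10.90 and 10.85 without Erk2, against 11.96 and 12.32 in WT and 6.27 and 6.46 at day 0. Its difference was -1.26 ± 0.14 (adjusted p = 3.7e-05). Irf8, an interferon regulatory factor, rose by 4.25 without Erk2 and by 5.24 in WT, a difference of -0.99 ± 0.11 (adjusted p = 3.6e-05). Irf4, the related factor that follows the strength of T cell receptor signalling, rose by 4.66 without Erk2 and by 5.04 in WT, and its difference of -0.38 ± 0.11 did not pass the 16-array fit (adjusted p = 0.074). Ccr8, a chemokine receptor, was at 11.25 and 11.16 without Erk2 and at 10.89 and 10.91 in WT, a difference of 0.30 (95% interval 0.06 to 0.55, adjusted p = 0.18). The interval of the difference was -0.36 to 0.05 for Tnfrsf4 (OX40), -0.55 to 0.19 for Tnfrsf9 (4-1BB), -0.32 to 0.10 for Gch1, the first enzyme of tetrahydrobiopterin synthesis, and -0.12 to 0.29 for Il4. These 4 genes were among the most induced and were not called. That none of their intervals reaches the size of the Tnf difference largely follows from that choice. Smaller falls are not excluded, since the Tnfrsf9 interval takes in the difference of Tnfsf11 (-0.52), which was called lower in both fits.

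Among 9800 genes, each described by its brightest probe, 374 were lower (3.82%) and 309 higher (3.15%) without Erk2, and 224 (2.29%) and 135 (1.38%) with the 16-array spread. The lists below are read against these shares and against a median difference of 0.01 over all genes. Of 11 measured feedback inhibitors of Erk signalling, 5 were lower and 2 higher, and 5 and 1 with the 16-array spread, with a median of -0.27. Besides Dusp6, Errfi1, which restrains receptors of the epidermal growth factor family, was at 9.38 and 9.28 without Erk2, against 10.03 and 10.17 in WT, and fell by 0.77 on the log2 scale (SE 0.09, adjusted p = 7.4e-05). Spred1 differed by -0.57 ± 0.13 (adjusted p = 0.027) and Dusp2, a nuclear phosphatase of Erk, by -0.46 ± 0.11 (adjusted p = 0.024). Neither kept its call with 1 pair left out, at adjusted p of 0.22 and 0.409 for Spred1 and 0.0735 and 0.614 for Dusp2 without the Th0 and the iTreg pair. Dusp10, a phosphatase that acts on p38 and Jnk, was higher by 0.47 ± 0.12 (adjusted p = 0.048). Without the iTreg pair its adjusted p was 0.843. Of 9 measured components of the cascade itself, 1 was lower and 2 higher, and 1 and 0 with the 16-array spread, with a median of 0.06.

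Dusp6 stood apart from the induced genes because its level without Erk2 was below the day 0 level. It changed by -0.997 without Erk2 and by 0.85 in WT relative to the mean of the day 0 arrays, which were at 11.27 and 10.61. The Erk2-deficient arrays lay below both of them and the WT arrays above both. Limits of a change of 0 or less without Erk2 and a rise of at least 0.3 in WT were chosen after the data were seen. Of the 374 genes called lower, 24 met them, and the reverse pattern was not counted. Dusp6 was among these 24 genes, but others were near the day 0 level without Erk2, such as Usp37 at -0.001 and Itgav at -0.03. The largest difference among them was that of Hba-a1, and Hbb-bt and Alas2, also genes of red cells, were in the group, while Frrs1 and Calr did not pass the 16-array fit (adjusted p = 0.11 and 0.16). The day 0 arrays differed from each other for Hba-a1, at 12.27 and 9.06, as given above. Other members were Malt1, a signalling protease downstream of the T cell receptor, at -0.06 without Erk2 and 0.74 in WT, and Cd160, a surface receptor, at -0.39 without Erk2 and 0.59 in WT.

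Of 20 measured immediate early transcription factors, 12 were lower and 0 higher in the 4-array fit, and 6 lower and 0 higher with the 16-array spread, with a median of -0.32. Egr2, whose promoter is shown above, was at 12.17 and 12.06 without Erk2, against 13.06 and 13.27 in WT and 8.97 and 8.98 at day 0. It fell by 1.05 on the log2 scale (SE 0.14, adjusted p = 0.00031) and kept 75.01% of the WT rise. Nr4a3, another orphan nuclear receptor, was at 9.68 and 9.76 without Erk2, against 10.21 and 10.57 in WT, and kept 83.3% of the rise. Without the iTreg pair the adjusted p was 0.0999 for Egr2 and 0.209 for Nr4a3. Atf3 was at 7.93 and 7.86 without Erk2, against 9.10 and 9.07 in WT, and fell by 1.18 on the log2 scale (SE 0.11, adjusted p = 5.1e-06). Egr1 was near the top of the intensity range, at 13.48 and 13.48 without Erk2 and at 14.35 and 14.43 in WT, and its difference of -0.91 ± 0.29 did not pass the 16-array fit (adjusted p = 0.11). Its 3 hr pairs were at -0.87 and -0.95, while its day 1 pairs ranged from -2.64 to -0.65, and that range enters the SE. Egr3 was at 6.62 and 6.57 without Erk2 and at 6.56 and 6.58 in WT. These values are close to background, so a fall of this probe could hardly have been seen. Myc, a regulator of growth, rose by 1.94 without Erk2 and by 2.25 in WT (difference -0.31 ± 0.11, adjusted p = 0.14). Fos and Junb, parts of AP-1, were high at day 0 and repressed by 3 hr. Fos was at 10.68 and 10.68 without Erk2, against 11.12 and 11.20 in WT and 13.77 and 13.90 at day 0, and the differences of -0.48 for Fos and -0.39 for Junb did not pass the 16-array fit (adjusted p = 0.13 and 0.071).

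Most cytokines and TNF family ligands were called lower in the 4-array fit. Of 17 measured members 14 were lower and 0 higher, 8 and 0 with the 16-array spread, and the median was -0.45. Lta was at 9.78 and 9.77 without Erk2, against 11.02 and 11.23 in WT and 8.71 and 8.82 at day 0, a difference of -1.35 ± 0.13 (adjusted p = 1.4e-05), and a second probe differed by -1.44. Tnfsf14 (LIGHT) was at 8.55 and 8.73 without Erk2, against 9.47 and 9.91 in WT, a difference of -1.05 ± 0.14 (adjusted p = 0.00029). Its adjusted p without the iTreg pair was 0.0842. Fasl, the ligand of the death receptor Fas, was at 9.03 and 8.90 without Erk2, against 9.87 and 10.003 in WT, a difference of -0.97 ± 0.12 (adjusted p = 0.00011). Ifng, which encodes interferon gamma, was at 8.79 and 8.23 without Erk2, against 9.07 and 9.49 in WT, a difference of -0.77 ± 0.15 (adjusted p = 0.009). The Ifng difference was mostly that of the iTreg pair, and without that pair its adjusted p was 0.678. Il4 and Il13 were the cytokines of type 2 responses in the list of Th2 genes, where 0 of 5 measured members were lower and 1, Gata3, was higher (0.35 ± 0.09, adjusted p = 0.037). Gata3 did not keep its call with either pair left out (adjusted p = 0.315 and 0.244 without the Th0 and the iTreg pair).

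Of 8 measured chemokines 7 were lower and 0 higher in both fits, with a median of -1.02. Ccl3, an inflammatory chemokine, was at 8.91 and 8.89 without Erk2, against 9.99 and 10.22 in WT and 6.52 and 6.46 at day 0, a difference of -1.21 ± 0.14 (adjusted p = 5.4e-05). Ccl4, its neighbour in function, rose by 4.13 without Erk2 and by 4.97 in WT at its brightest probe. That difference was -0.84 ± 0.19 (adjusted p = 0.021), with adjusted p of 0.0986 and 0.6 without the Th0 and the iTreg pair. Cxcl10 was at 8.09 and 7.57 without Erk2, against 8.89 and 9.11 in WT, and Xcl1, lymphotactin, at 10.34 and 10.56 without Erk2, against 11.19 and 11.55 in WT. Both kept their calls in all alternatives.

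Interferon gamma response genes and Th1 genes fell in part. Of 15 measured interferon gamma response genes 9 were lower and 1 higher, 8 and 1 with the 16-array spread, with a median of -0.58. All 9 were induced at 3 hr. Gbp2, an interferon-induced GTPase, was at 12.76 and 12.45 without Erk2, against 13.39 and 13.32 in WT, a difference of -0.75 ± 0.10 (adjusted p = 0.00033), and kept 71.4% of the WT rise. Its adjusted p without the iTreg pair was 0.0897. Cd274 (PD-L1) was at 12.23 and 12.14 without Erk2, against 12.76 and 12.92 in WT. Of 13 measured type I interferon response genes 2 were lower and 1 higher in both fits, with a median of -0.06, and 8 of the 13 were repressed at 3 hr. Of 13 measured Th1 genes 8 were lower and 0 higher, and 6 and 0 with the 16-array spread, with a median of -0.60. This list shares Ccl3, Ccl4, Fasl and Ifng with the lists above. Tbx21, which encodes the Th1 factor T-bet, was at 9.05 and 9.14 without Erk2, against 9.78 and 9.97 in WT and 6.94 and 6.75 at day 0. It differed by -0.78 ± 0.17 (adjusted p = 0.019), and its adjusted p was 0.146 and 0.469 without the Th0 and the iTreg pair.

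Surface receptors and regulatory T cell genes were mixed. Of 16 measured activation receptors 8 were lower and 1 higher, and 3 and 0 with the 16-array spread. Il2ra, the alpha chain of the interleukin 2 receptor, was at 8.42 and 8.44 without Erk2, against 9.12 and 9.53 in WT, a difference of -0.89 ± 0.10 (adjusted p = 4.1e-05). Slamf1 was at 10.66 and 10.44 without Erk2, against 11.47 and 11.65 in WT, a difference of -1.01 ± 0.12 (adjusted p = 7e-05). Cd69, an early activation marker, was at 14.02 and 13.80 without Erk2 and at 14.18 and 14.40 in WT, and did not pass the 16-array fit (-0.38 ± 0.14, adjusted p = 0.15). Of 14 measured Treg genes 8 were lower and 2 higher, and 3 and 1 with the 16-array spread. Foxp3, the defining factor of regulatory T cells, was at 7.997 and 7.99 without Erk2, against 8.605 and 8.51 in WT and 7.98 and 7.82 at day 0. It fell by 0.57 on the log2 scale (SE 0.12, adjusted p = 0.015), and the adjusted p was 0.183 and 0.277 without the Th0 and the iTreg pair. Swap70, a signalling protein in the same list, was at 9.74 and 9.85 without Erk2, against 9.33 and 9.34 in WT. Its adjusted p was 0.009 with both pairs, and 0.0725 and 0.359 without the Th0 and the iTreg pair. Of 17 measured genes of the transforming growth factor beta response 6 were lower and 0 higher, and 4 and 0 with the 16-array spread, of which Cdkn1a, an inhibitor of cyclin-dependent kinases, was at 8.70 and 8.79 without Erk2, against 9.82 and 10.06 in WT (difference -1.20 ± 0.09, adjusted p = 6.8e-07).

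Few genes of the NF-kappaB, NFAT and ribosome biogenesis lists were called. Of 14 measured genes of the NF-kappaB pathway and its targets 1, Rel, was lower and 0 higher, and 6 of the 14 were induced. Rel differed by -0.38 ± 0.12 (adjusted p = 0.11). Of 9 measured genes in the list named NFAT and calcineurin targets 1, Irf4, was lower. Most of these 9 encode NFAT factors or calcineurin subunits and not their targets, and 1 of the 9 was induced. The list therefore says little about NFAT target genes. Of 13 measured ribosome biogenesis genes 0 were called in either direction. With the 16-array spread 0 genes of these 3 lists were called. The median differences were 0.03, -0.02 and -0.13. Nfkbid, an inhibitor protein of NF-kappaB, was at 13.47 and 13.58 without Erk2, against 13.66 and 13.93 in WT and 12.32 and 12.22 at day 0. Its difference was -0.27 (95% interval -0.47 to -0.07). Of 14 measured genes of proximal T cell receptor signalling 2 were lower and 1 higher in both fits. Malt1 was at 9.85 and 9.93 without Erk2, against 10.65 and 10.75 in WT (difference -0.81 ± 0.10, adjusted p = 7.7e-05). Ptpn6, the phosphatase SHP-1 that restrains T cell receptor signalling, was at 12.43 and 12.36 without Erk2, against 11.77 and 11.78 in WT (difference 0.61 ± 0.09, adjusted p = 0.00051).

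**Figure D3:**
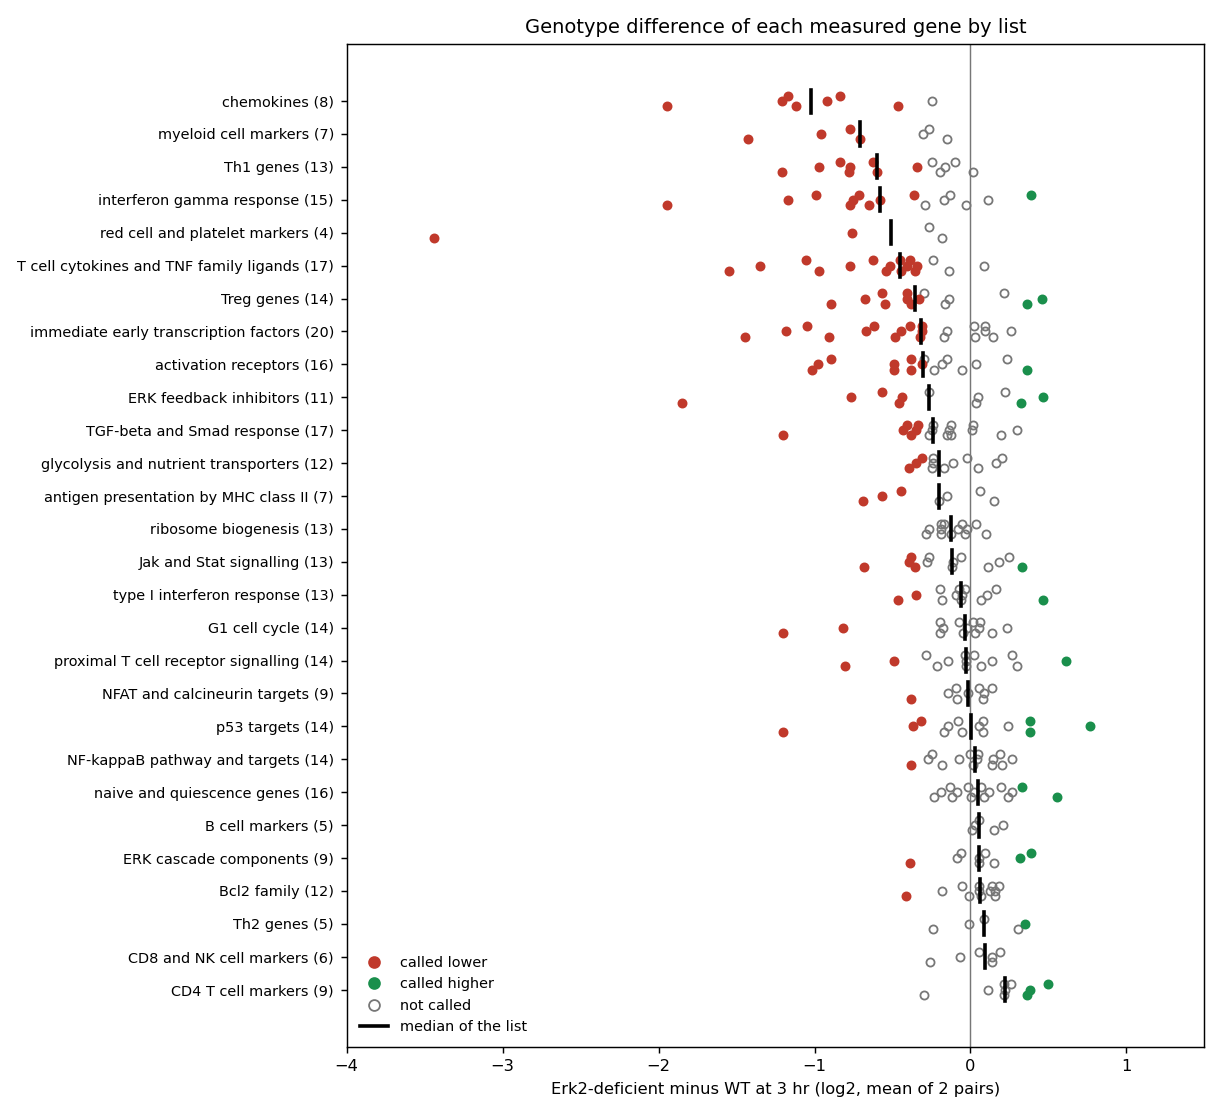
Erk2-deficient minus WT at 3 hr (horizontal axis, log2, mean of 2 pairs) for each measured gene of 28 lists (rows, number measured in brackets), sorted by the median, which a bar marks. Filled red and green points were called lower and higher in the 4-array fit, and open points were not called. Chemokines lie furthest to the left with a median of -1.02, while NF-kappaB, NFAT and naive cell lists lie close to 0.

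Genes higher without Erk2 were fewer among the large differences. After Gdpd3 (2.71 ± 0.18, adjusted p = 2.3e-07), Gtf2ird1, a transcription factor, was at 8.69 and 8.66 without Erk2, against 7.80 and 7.84 in WT and 7.15 and 7.15 at day 0, a difference of 0.86 ± 0.11 (adjusted p = 0.00012). Mapre2, a microtubule end-binding protein, was at 10.20 and 10.24 without Erk2, against 9.48 and 9.35 in WT, a difference of 0.81 ± 0.09 (adjusted p = 5.2e-05). Both are induced genes that rose further without Erk2, by 1.52 against 0.66 for Gtf2ird1 and by 1.93 against 1.13 for Mapre2. Phlda3, a p53 target that restrains Akt, was at 7.86 and 7.85 without Erk2, against 7.09 and 7.09 in WT (difference 0.77 ± 0.11, adjusted p = 0.00039). Of 14 measured p53 targets 3 were lower and 3 higher, and 1 and 3 with the 16-array spread. In this list Cdkn1a and Phlda3, both members, ran in opposite directions.

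Repressed genes that were higher without Erk2 in the 4-array fit numbered 64, of which 22 were also higher with the 16-array spread. Their fall without Erk2 was a median of 75.4% of the WT fall, with a range of 63.3 to 88.1%. This share is bounded by the choice of genes, repressed at least 2-fold on the mean of both genotypes and called higher. Pdlim4, a cytoskeletal adaptor, was at 9.15 and 8.97 without Erk2, against 8.13 and 8.14 in WT and 11.73 and 12.03 at day 0. It differed by 0.93 ± 0.22 (adjusted p = 0.03), with adjusted p of 0.267 and 0.394 without the Th0 and the iTreg pair. Tle5, a Groucho-related corepressor, was at 10.71 and 10.74 without Erk2, against 10.16 and 9.97 in WT (difference 0.66 ± 0.11, adjusted p = 0.0013), and its adjusted p without the iTreg pair was 0.207. Klf2, a factor of quiescent T cells that drives homing receptors, was at 12.22 and 12.29 without Erk2, against 11.82 and 11.59 in WT and 13.78 and 13.71 at day 0. Its difference of 0.55 ± 0.19 passed the 4-array fit only (adjusted p = 0.14). Of 16 measured naive and quiescence genes 9 were repressed at 3 hr, 0 were lower and 2, Klf2 and Ccr7, higher, and 0 were called in either direction with the 16-array spread. Of the 30 most repressed genes 4 were lower, 5 higher and 21 not called, and 2 were lower and 2 higher with the 16-array spread. Dtx1, an E3 ligase of the Notch pathway and the most repressed, differed by 0.17 (95% interval -0.02 to 0.37).

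A smaller group of repressed genes was called lower still without Erk2. Such calls were 4.53% of repressed probes in the 4-array fit, near the 3.76% of all probes. With the 16-array spread they were 2.72%, beside 2.22% of all probes. Hspa1a, which encodes the heat shock protein Hsp70, was at 8.79 and 8.85 without Erk2, against 9.93 and 9.998 in WT and 12.66 and 12.32 at day 0, a difference of -1.14 ± 0.09 (adjusted p = 1.8e-06). Ipcef1, an interactor of cytohesin, was at 7.43 and 7.48 without Erk2, against 8.62 and 8.68 in WT and 9.25 and 9.08 at day 0 (difference -1.20 ± 0.10, adjusted p = 2.7e-06). Lyz1 and Lyz2, lysozymes of myeloid cells, also belong here. Lyz1 was at 8.24 and 7.87 without Erk2, against 9.59 and 9.36 in WT and 10.54 and 10.04 at day 0 (difference -1.42 ± 0.10, adjusted p = 2.6e-07).

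Markers of some other cells differed with genotype. Of 7 measured myeloid markers 4 were lower and 0 higher (3 and 0 with the 16-array spread), and their summed normalized intensity, with the offset of 50 taken off each, was 1251 and 1353 on the Erk2-deficient Th0 and iTreg arrays, against 2857 and 2289 in WT. Itgam, Itgax and Cd14 were not above background. Of 7 measured genes of MHC class II antigen presentation 3 were lower, with sums of 1002 and 905 without Erk2 and 1208 and 1088 in WT. Of 4 measured red cell and platelet markers 2 were lower, with sums of 536 and 554 without Erk2 and 5662 and 5548 in WT. Of 5 measured B cell markers and 6 measured CD8 and NK cell markers 0 were called. Of 9 measured CD4 T cell markers 0 were lower and 3 higher (1 with the 16-array spread), with sums of 52739 and 50116 without Erk2 and 44516 and 40171 in WT. The part of other cells in the falls of chemokines, Tnf and interferon gamma response genes, several of which myeloid cells also make, was not tested. In bulk arrays fewer cells of a type and less RNA per cell cannot be told apart.

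The 3 hr difference was set beside that at day 1, which was measured on 5 other pairs. Of 545 probes lower at 3 hr, 146 were also lower at day 1, which is 26.8% of the 3 hr calls and 35.01% of the 417 called lower at day 1 (2.88% of all probes, or 315 genes, 3.21%). Of 411 higher at 3 hr, 96 were also higher at day 1, 23.4% of the 3 hr calls and 18.97% of the 506 at day 1 (3.49%, or 368 genes, 3.76%). The difference at 3 hr departed downward from that at day 1 for 143 probes (0.986%) and upward for 36 (0.248%). These 179 became 403 without the day 1 iTreg pair, 101 without the 3 hr Th0 pair and 27 without the 3 hr iTreg pair. Day 1 cultures other than Th0 were on a second chip, and chip and stage cannot be fully told apart.

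Among immediate early genes the stages differed by gene. Nr4a2 differed by -1.45 at 3 hr and by -0.27 at day 1, and the change between stages passed the test (adjusted p = 5.2e-05). Egr2 differed by -1.05 at 3 hr and by -1.14 at day 1 (adjusted p of the departure 0.88), and Rgs16, a regulator of G protein signalling, by -1.36 and -1.38 (0.97). Tnf differed by -1.55 at 3 hr and by -0.75 at day 1 (0.021), Cxcl10 by -1.17 and -0.09 (0.00081) and Hspa1a by -1.14 and -0.04 (0.00016). Egr1 was at -0.91 at 3 hr and -2.02 at day 1 (0.16), where the iTreg pair was at -0.65 and the other pairs between -2.64 and -2.08. Foxp3 and Il2ra turned sign. Foxp3 was lower by 0.57 at 3 hr and higher by 0.60 at day 1, and Il2ra was lower by 0.89 at 3 hr and higher by 0.25 at day 1, with adjusted p of the departure of 0.00037 and 0.00019. In all, 17 probes lower at 3 hr were called higher at day 1, and 5 higher at 3 hr were called lower.

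**Figure D4:**
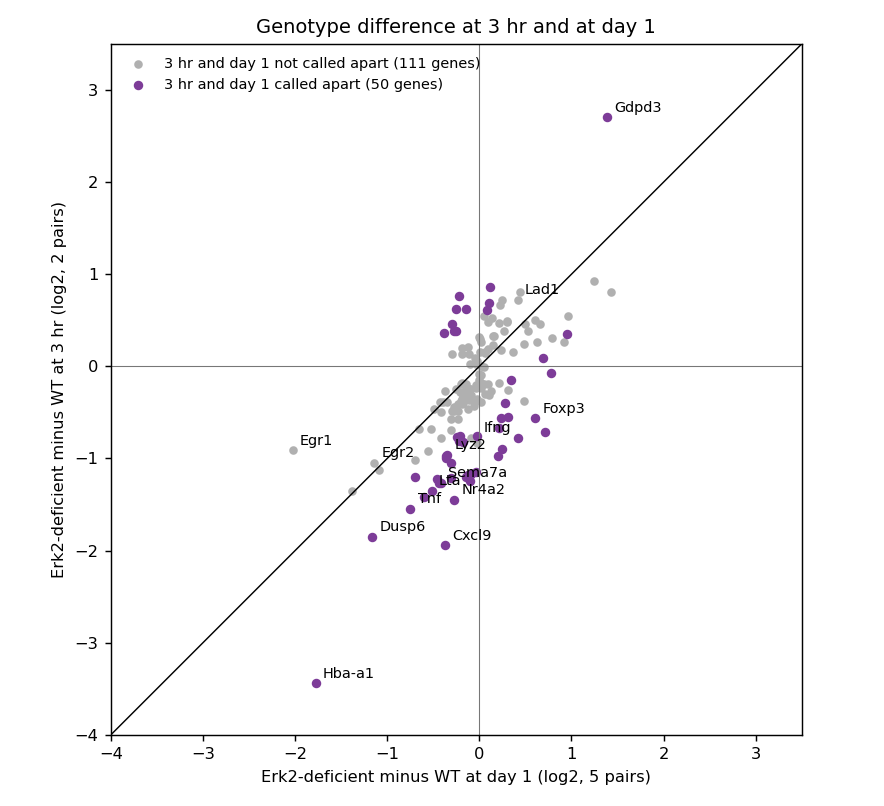
Erk2-deficient minus WT at 3 hr (vertical axis, log2, 2 pairs) against the same at day 1 (horizontal axis, log2, 5 pairs) for the named genes. Purple points passed the test of a departure between the stages and grey points did not. Nr4a2 and Cxcl9 lie well below the diagonal, Egr2 lies on it, and Foxp3 is below 0 at 3 hr and above 0 at day 1.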

How the data were processed

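The 16 samples of mouse CD4 T cells were hybridised to Illumina bead arrays. The authors deposited a table of linear probe intensity, not normalized and without detection p-values, and a series matrix of intensity they had scaled between arrays. How they did so, and the scanner settings, are not stated in the labels. RNA came from Trizol extracts and was amplified to biotinylated cRNA, per the labels' protocols. Here the first table was corrected with normexp (offset 50), quantile normalized over 16 arrays and put on a log2 scale with limma 3.58.1 in R 4.3.3. Background was the 99th percentile of a normal curve placed on the mode of log2 intensity. Probes above it on at least 2 arrays were kept, which left 14501 of 25697 and 9800 genes. From 12172 to 12636 probes passed on each array, and array medians of intensity were 62.58 to 71.09. The number of arrays limits the precision.

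The genotype difference was fitted on the 4 arrays at 3 hr with culture as a term, the change from day 0 on 6 arrays, and the stages on 16 arrays (lmFit and eBayes, Benjamini-Hochberg over all kept probes, threshold 0.05). Named genes have 1 symbol and are the 15 largest falls and 10 largest rises called with 1 direction in both pairs, the 8 largest of each class of induced or repressed and lower or higher probes, the 5 largest of each of 28 lists, the 6 largest departures each way, and a set of T cell genes, each described by its brightest probe. Other genes named were chosen after their values were seen. Members and lists were chosen with earlier results of these data known. Where a group was not above background, the fold is a bound against the lowest signal above it. The fits were tested on simulated data with the same spread for every probe, which cannot show how they do where spreads differ. Alternatives changed the background correction, normalization, deposited table, filter, prior, baseline, fold limit or culture term, or left out a pair. Columns belonging to other samples numbered 0. A check of the labels by the targeted gene is not reported here.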

Additional observations from a re-analysis of the deposited data

Results flagged for a closer look

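Listed are the largest departures between the stages among named genes in each direction, genes called in opposite directions at 3 hr and at day 1, and genes whose day 0 pair as labelled ran opposite to the 3 hr pairs by at least 1. Except for day 0, each value is the genotype difference at 3 hr minus that at day 1, on the log2 scale, with the adjusted p of the limma test.

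Genes with a difference below 0 at 3 hr and above 0 at day 1 were Foxp3 at -1.17 (adjusted p = 0.00037), Il2ra at -1.14 (0.00019), Cd160, a receptor for Tnfrsf14, at -1.18 (0.00037), Map3k8, the kinase Tpl2 upstream of MEK, at -1.03 (0.0011), Lif at -0.96 (0.0011) and Cd74, the invariant chain of MHC class II, at -0.80 (0.00081). The myeloid genes S100a8 (-1.42, 0.0075), S100a9 (-1.19, 0.0045) and Camp (-0.83, 0.0013) were in the same direction. Cxcl9 was below 0 at both stages and differed by -1.57 (0.00027). Ccl4 differed by -1.21 at its dimmer probe (0.0024), and at day 1 that probe was at 0.01 and the brighter one at -0.03.

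Genes with a difference above 0 at 3 hr and below 0 at day 1 were Phlda3 at 0.99 and 0.80 by its probes (0.00053 and 0.0032), Lrmp at 0.87 (0.00056), Sac3d1 at 0.76 (0.015), Bst2 at 0.76 (0.032), Cd5 at 0.74 (0.0011), Ccng1 at 0.66 (0.0021) and Zmat3 at 0.64 (0.0067). Phlda3, Ccng1 and Zmat3 are known p53 targets.

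Hba-a1 differed between the stages by -1.66 (0.013) and Gdpd3 by 1.32 (0.0038). In the day 0 pair as labelled Hba-a1 was at 3.20 and Gdpd3 at -3.48, opposite to both 3 hr pairs. That opposition was not tested, since day 0 has 1 array of each label.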

How the results depend on the processing

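Each probe's 3 hr difference rests on 2 pairs and on signal over background, so small differences of dim probes were not detectable. The counts depended on the scale at low intensity and on the spread used. The 956 calls at 3 hr (545 lower, 411 higher) became 329 (248 and 81) with normexp offset 16, 471 (264 and 207) with median scaling and 501 (322 and 179) with the spread of all 16 arrays, and higher calls 260 with no culture term. Leaving out a 3 hr pair gave 79 to 251 calls (73 to 198 lower, 6 to 53 higher). The 146 induced and lower probes became 94 with offset 16. The 72 repressed and higher probes became 10 with offset 16, 34 with median scaling and 24 with genotype calls from the spread of all 16 arrays, an alternative chosen after seeing the data. At 1.5-fold 1385 probes were induced and 1455 repressed, 223 of them induced and lower and 144 repressed and higher, and at 4-fold 73, 45, 45 and 9. The 179 departures from day 1 (143 downward) became 65 (55) with offset 16, 94 (71) with median scaling and 27 to 403 (23 to 287) when a pair was left out. The 4 iTreg calls became 0 with offset 16, 2 with median scaling, 0 with no filter and 2 with a trended robust prior. Of 118 named called probes 38 kept their call in all 13 alternatives and 80 lost it in at least 1. Losses were most frequent with a 3 hr pair left out, and 42 probes lost the call with offset 16. Slc1a5 changed sign, with -0.73 to 0.11 when a 3 hr pair was left out. The cause was not tested. The genotypes were paired by culture in the fit, since culture was a term.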

Other observations

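Gdpd3 lies next to Mapk3, the gene of Erk1, in the RefSeq annotation of GRCm38.p6. Its level at 3 hr was 9.47 and 9.31 without Erk2 and 6.74 and 6.63 in WT. Mapk3 is not analysed here.

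Actb, the gene of beta-actin and often used as a reference, held a probe that differed by -0.11 in the Th0 pair and by -1.43 in the iTreg pair. That probe was at 12.95 and 11.63 without Erk2 and at 13.06 and 13.06 in WT.

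Of 12 measured genes of glycolysis and nutrient transport, 3 were lower in the 4-array fit and 0 with the 16-array spread, namely the glucose transporters Slc2a1 and Slc2a3 and the glutamine transporter Slc1a5. Of 14 measured G1 cell cycle genes 2, Cdkn1a and Ccnd2, were lower in both fits. Of 12 measured Bcl2 family genes 1, Bcl2l1, was lower in the 4-array fit. Of 13 measured genes of Jak and Stat signalling 4 were lower and 1 higher, and 2 and 0 with the 16-array spread.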
